A study of Mus musculus with 14 samples.

Results

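CREB, its relatives CREM and ATF1, and the coactivators they recruit were followed as 8 genes of 52459 gene symbols: Creb1, Crem, Atf1, Crtc1, Crtc2, Crtc3, Crebbp and Ep300. They were taken by gene symbol and carried 96 of the 131100 transcripts quantified, 39 of them from Crem. RNA was sequenced from cortical neurons that had been cultured from mouse embryos at E16.5. On day 5 in vitro every group received 1 µM tetrodotoxin, a sodium channel blocker, and 100 µM APV, an NMDA receptor blocker, which silence spontaneous activity. On day 6 cultures either received 50 mM KCl for 1 h, which depolarises the membrane, or stayed at basal KCl. SA and SE cultures came from knock-in embryos whose BRG1, the motor subunit of the chromatin remodeller BAF, has residue 1382 changed from serine to alanine (SA) or to glutamate (SE). Each mutant had wild-type littermate cultures, called here the SA-line and the SE-line wild type. The groups were SA, SE and SA-line wild type with 2 libraries after KCl and 2 at basal each, and SE-line wild type with 1 and 1. The labels name no promoter or Cre that would limit the knock-in alleles to neurons, and the cultures also held markers of other cell types. The labels number the replicates but do not say that they came from separate animals or cultures, so p-values measure the spread between these libraries, which may be technical.

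CREB, CREM and ATF1 are basic leucine zipper proteins that bind the cAMP response element (CRE) as dimers. When calcium enters a depolarised neuron, kinases phosphorylate CREB, and the phosphorylated protein recruits the acetyltransferases CBP, encoded by Crebbp, and p300, encoded by Ep300. The CRTC proteins are a separate arm: calcineurin dephosphorylates them, they enter the nucleus and bind the leucine zipper of CREB. Most of this switch runs on existing protein. Crem is the textbook exception, since an internal promoter of the gene makes ICER, a short repressor that keeps the DNA-binding region and lacks the activation domain, and that promoter is itself inducible.

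Libraries held 22625916 to 23096206 estimated counts. The lines stood apart at basal, where 45.8% of all genes differed between them at an adjusted p under 0.05 (edgeR). Markers of most cell types differed as well, so each mutant was set against its own littermates. The first principal component of log2 CPM (counts scaled to library size) held 70.4% of the variance. The summed glutamatergic markers reached 2364 to 2457 CPM in basal SE-line libraries and 578 to 969 CPM in basal SA-line libraries. Astrocyte markers summed to 445 to 489 CPM and 1899 to 2701 CPM in the same libraries, and no marker was at 0 in all libraries. In such cultures a change in the number of cells of a type and a change in RNA per cell cannot be told apart.

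At basal KCl the coactivator Crtc1 was the most abundant of the 8 genes. Its level was 43.2 ± 4.91 TPM (SD, n = 7; an abundance scaled to transcript length and library size), and its range did not overlap that of the next gene, Ep300, at 18.2 ± 4.14 TPM. Because TPM is scaled to length, levels of different genes can be set side by side. Gene TPM sums all models, including retained-intron and nonsense-mediated decay models, and the order without these was not tested. Creb1 followed at 15.6 ± 2.97 TPM, Atf1 at 10.6 ± 4.19, Crtc2 at 9.90 ± 1.36, Crebbp at 8.52 ± 1.34, Crtc3 at 8.33 ± 3.58 and Crem at 8.06 ± 0.855 TPM. From Ep300 to Crem every pair of neighbours in this order overlapped in range. Creb1 was above Atf1 in 7 of 7 basal libraries even so, whereas Crebbp was above Crtc3 in 3 of 7. Among the 15591 genes with at least 1 TPM at basal, Crtc1 lay at or above 77.6% and Crem at or above 37.0%.

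**Figure D1:**
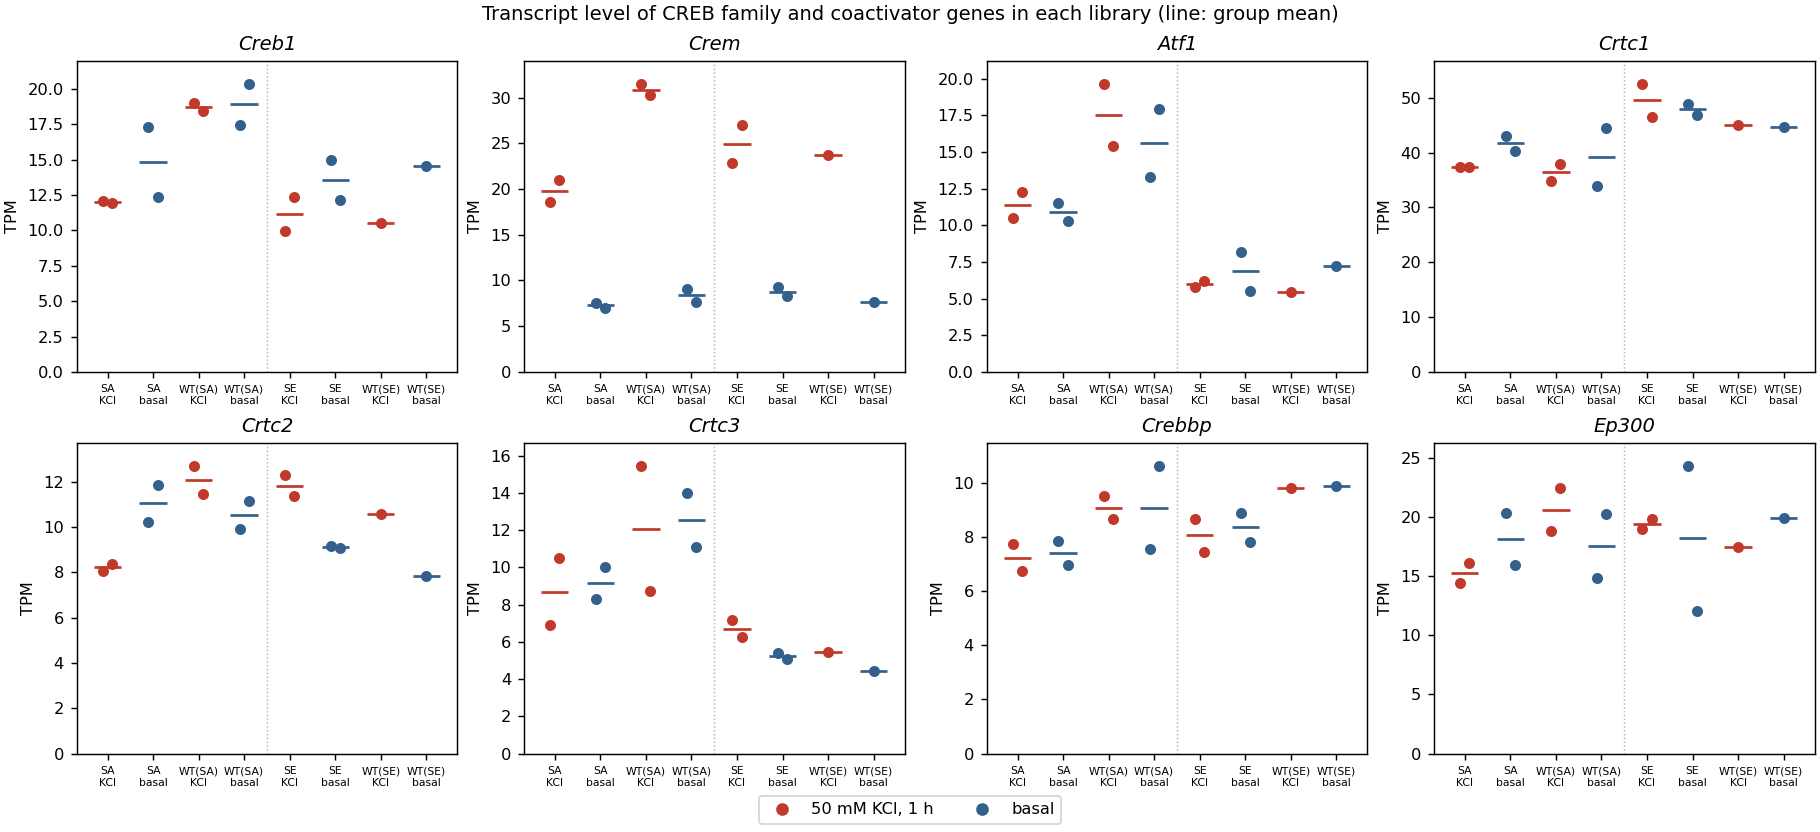
Level in TPM (vertical axes, from 0) of each of the 8 genes in all 14 libraries, as points with the group mean as a line; SA-line groups stand left of the dotted line and SE-line groups right of it. Crem was 18.6 TPM or more in every KCl library and 9.24 TPM or less in every basal library. The other 7 genes overlapped between treatments when both lines were pooled. Within the SE line Crtc2 (10.6 to 12.3 TPM after KCl, 7.83 to 9.19 at basal) did not overlap. Nor did Crtc3 there (5.44 to 7.19 TPM after KCl, 4.42 to 5.40 at basal), and in the SA line both genes overlapped.

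Crem (ENSMUSG00000063889.16, chromosome 18, 3266048 to 3337748, minus strand, GRCm38) was higher after KCl in every group, and was the sole member to pass the test for KCl over all groups and within SA, SE and wild type. It reached 18.6 and 21.03 TPM in SA cultures after KCl, against 7.57 and 6.95 TPM in SA cultures at basal. In SE cultures it was 22.8 and 27.0 TPM after KCl, against 9.24 and 8.32 TPM at basal. In SA-line wild type it was 31.5 and 30.3 TPM after KCl, against 9.10 and 7.64 TPM at basal. SE-line wild type gave 23.7 TPM after KCl and 7.63 TPM at basal. All 7 KCl libraries were therefore above all 7 basal libraries, and SA-line wild type was the highest group after KCl.

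Averaged over the 4 genotype-by-line groups, the log2 fold change of Crem was 1.44 ± 0.121 (standard error, as for all log2 values below; 2.72-fold, adjusted p = 8.00e-05, edgeR quasi-likelihood test on estimated counts with Benjamini-Hochberg adjustment over 17732 genes, as are all adjusted p-values of genes below). Within genotypes it was 1.48 ± 0.217 in SA (adjusted p = 0.0122), 1.43 ± 0.215 in SE (adjusted p = 0.00863) and 1.46 ± 0.175 in wild type, with 3 libraries at each treatment (adjusted p = 0.00218). Thus 1 of 8 members rose in each of these comparisons and none fell. Of all genes tested, 2.62% rose and 1.93% fell over all groups, 0.699% rose and 0.147% fell in SA, 1.22% rose and 0.446% fell in SE, and 1.05% rose and 0.361% fell in wild type. The calls within genotypes rest on few libraries. In SA the adjusted p lay between 0.0596 and 0.163 when any of its 4 libraries was left out. In SE it was 0.0791 to 0.119 without KCl replicate 2, basal replicate 1 or basal replicate 2. With only the libraries compared in the fit, the adjusted p of Crem was 0.0950 in SA and 0.323 in wild type, and Crtc2 was also called in SE (0.48 ± 0.130, adjusted p = 0.0383).

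Much of the rise came from the short transcripts that begin inside the gene. GENCODE M21 lists 7 Crem transcripts in a downstream group of starts, between 3281078 and 3281769, with open reading frames of 95 to 125 codons. These form the internal class by annotated start alone, and promoter use was not tested. The other 32 start upstream, between 3299452 and 3337748, and the longest encodes 357 codons. The internal class, the ICER type, summed to 18.5 ± 4.28 TPM after KCl (SD, n = 7; range 12.5 to 23.9), against 3.06 ± 0.953 TPM at basal (range 1.58 to 4.10). Upstream transcripts summed to 5.28 to 7.83 TPM after KCl and 3.99 to 5.44 TPM at basal, ranges that overlap. The internal class was 73.5% ± 4.22 of Crem TPM after KCl, against 37.3% ± 9.19 at basal. Of estimated counts, which are not scaled to transcript length, it was 49.9% ± 4.52 after KCl and 24.0% ± 5.86 at basal. The TPM difference of 36.2 percentage points had p = 0.00463 in a two-sided exact permutation test within groups, the smallest that its 432 arrangements can give. The same split enters a fit below that was chosen after the values were seen, so the p-value only describes these libraries.

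By library, the internal share was 67.6% and 74.9% in SA after KCl, against 47.3% and 22.7% in SA at basal. In SE it was 74.7% and 75.7% after KCl, against 42.1% and 42.1% at basal. SA-line wild type had 75.1% and 78.9% after KCl, against 45.1% and 28.8% at basal, and SE-line wild type had 67.9% after KCl and 33.3% at basal. The lowest share after KCl was thus above the highest at basal. Basal replicates of the SA line differed among themselves by more than the KCl replicates did.

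**Figure D2:**
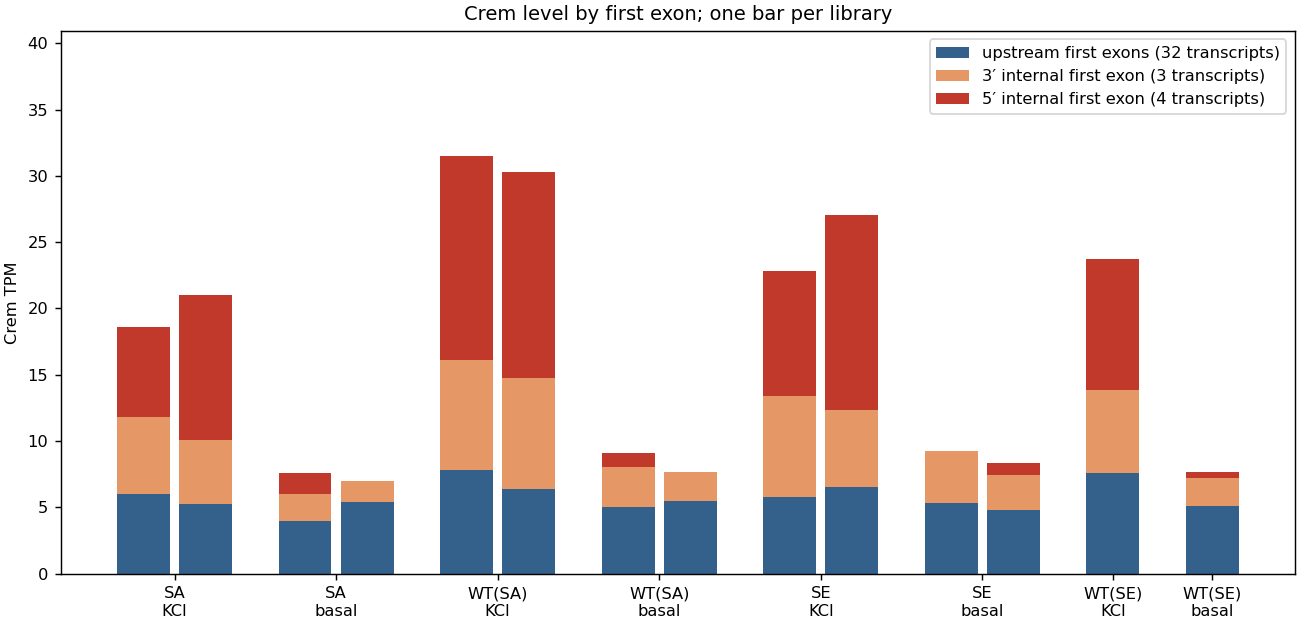
Crem level in TPM (vertical axis), stacked by the first exon of the transcripts, with a bar for each of the 14 libraries. The red segment, the 5′ internal first exon, was 6.77 to 15.5 TPM after KCl and 0 to 1.60 TPM at basal, and the blue upstream segment differed far less.

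A pair of internal first exons made up this class, and their levels differed in the size of the change. Transcripts from the 5′ exon of the pair (3281688 to 3281769; Crem-219, Crem-224, Crem-229 and Crem-235) summed to 11.8 ± 3.43 TPM after KCl and 0.576 ± 0.636 TPM at basal (SD, n = 7 each), and 3 of 7 basal libraries were at 0. Those from the 3′ exon (3280949 to 3281132; Crem-202, Crem-206 and Crem-218) summed to 6.69 ± 1.39 TPM after KCl and 2.48 ± 0.771 TPM at basal. The ratio of means was 20.5 for the first set and 2.70 for the second. In estimated counts these means were 96.2 and 4.55 per library for the 5′ exon, and 65.6 and 24.6 for the 3′ exon, so the basal value of the 5′ exon rests on few reads. Every basal library had at least 1.58 TPM from the 3′ exon.

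Single transcripts were less certain than their sums, because short models that share exons divide the same reads. Of 17 Crem transcripts that could be tested, 2 rose over all groups and none fell, where 1.24% of 47808 transcripts rose and 0.697% fell. They were Crem-229 (adjusted p = 0.0113) and Crem-202 (adjusted p = 0.0208, log2 fold change 3.13 ± 0.469; edgeR over all transcripts), both of the internal class. Crem-229, which encodes 113 codons, was 1.98 and 7.50 TPM in SA, 4.11 and 8.20 in SE, 4.07 and 5.63 in SA-line wild type and 2.83 TPM in SE-line wild type after KCl. It was listed at 0 in all 7 basal libraries. Crem-229 thus passed the filter on low counts through KCl libraries alone, and its p-value is not independent of that choice. Crem-202 was 0.722 to 2.25 TPM after KCl and 0 to 0.890 TPM at basal. Without SA KCl replicate 2, SE KCl replicate 2, or replicate 2 of SA-line wild type at either treatment, Crem-229 alone passed. DESeq2 called 6 Crem transcripts: Crem-202, Crem-218, Crem-219 and Crem-229 of the internal class, and Crem-230 and Crem-233 of the upstream class. In edgeR no Crem transcript passed within SA, SE or wild type alone, where 0.197%, 0.535% and 0.456% of all transcripts did.

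The remaining internal transcripts were higher on average after KCl without passing the test. Crem-219 averaged 3.70 TPM after KCl and 0.412 TPM at basal (adjusted p = 0.188), and Crem-224 averaged 2.23 and 0.163 TPM (adjusted p = 0.148). Crem-218 averaged 2.63 and 1.03 TPM (adjusted p = 0.142), and Crem-206 averaged 2.48 and 1.13 TPM (adjusted p = 0.219). Crem-235 was at 2.74 and 3.84 TPM in SA-line wild type after KCl, at 0.174 TPM in SE-line wild type after KCl, and listed at 0 in the other 11 libraries. All 7 internal models thus had a higher mean after KCl, against 11 of the 32 upstream models. Of those 32, 30 were detected in any library, and many were at 0 in most libraries. Models that divide the same reads are not independent, so these counts are only descriptive. Among upstream models with at least 0.1 TPM, Crem-233 showed the largest gap, with 1.35 TPM after KCl and 0.0528 TPM at basal (adjusted p = 0.0769), followed by Crem-203 with 0.994 and 0.493 TPM (adjusted p = 1.00).

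**Figure D3:**
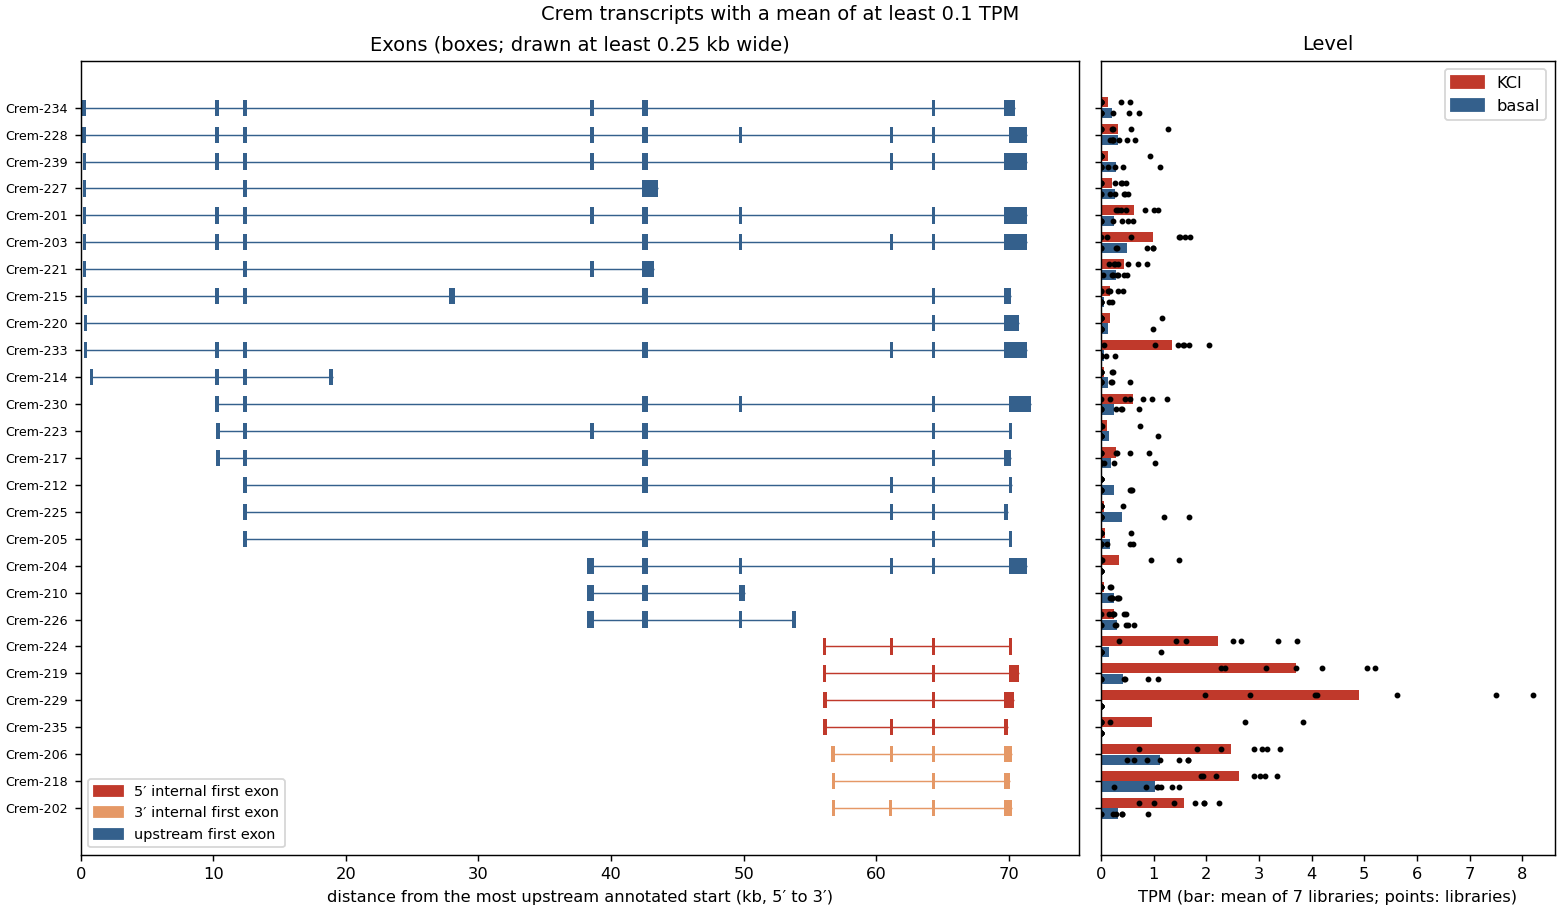
Crem transcript models with a mean of at least 0.1 TPM, drawn by distance in kb from the most upstream annotated start (left), with their level in TPM (right; bars, means of 7 libraries; points, libraries; KCl above basal). The 7 models at the bottom, which start at the internal first exons, carried most of the signal after KCl, led by Crem-229 at a mean of 4.90 TPM.

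Both classes rose when they were placed in the gene table in lieu of Crem, a split that was chosen after the values were seen. Internal transcripts had a log2 fold change of 2.52 ± 0.195 over all groups (5.73-fold, adjusted p = 4.88e-05) and upstream transcripts 0.85 ± 0.134 (1.80-fold, adjusted p = 0.00494). The internal class was also called in SA (2.66 ± 0.354, adjusted p = 0.00641), SE (2.23 ± 0.334, adjusted p = 0.00846) and wild type (2.61 ± 0.280, adjusted p = 0.00111). The upstream class was called in none of these (adjusted p = 0.244 in SA, 0.163 in SE and 0.0914 in wild type). The 3′ ends of the models bear on this division. No internal model reaches past position 3266957, whereas 7 upstream models do, and those 7 averaged 134 estimated counts per library after KCl and 54.0 at basal. The other 25 upstream models averaged 26.9 and 36.8. Reads in the last stretch of the longest 3′ end can be assigned only to the 7 long models by construction, and how many belonged to ICER transcripts was not tested.

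Crem carries alternative ends of its coding sequence, in the DNA-binding region, and transcripts with either were higher after KCl. Transcripts whose coding sequence ends at position 3267988 summed to 16.1 ± 3.16 TPM after KCl and 4.24 ± 0.642 TPM at basal. Those whose coding sequence ends at position 3267591 summed to 7.42 ± 2.50 TPM after KCl and 1.96 ± 0.375 TPM at basal (SD, n = 7 each). Ranges did not overlap between treatments for either end, and both sums include upstream and internal models.

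Creb1 (ENSMUSG00000025958.14, chromosome 1, 64532645 to 64604548, plus strand), the founding member, did not pass the test after KCl. It was 12.1 and 11.96 TPM in SA, 9.999 and 12.4 in SE, 19.0 and 18.5 in SA-line wild type and 10.5 TPM in SE-line wild type after KCl. At basal the values were 17.4 and 12.4 in SA, 14.97 and 12.2 in SE, 17.5 and 20.4 in SA-line wild type and 14.5 TPM in SE-line wild type. The treatments overlapped, with a log2 fold change of -0.22 ± 0.0946 (adjusted p = 0.327). Atf1 (ENSMUSG00000023027.13, chromosome 15, 100227819 to 100261244, plus strand), which dimerises with CREB, averaged 10.7 ± 5.42 TPM after KCl and 10.6 ± 4.19 TPM at basal (SD, n = 7 each), with a log2 fold change of -0.08 ± 0.118 (adjusted p = 0.916).

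The coactivators likewise did not pass. Crtc1 (ENSMUSG00000003575.13, chromosome 8, 70382355 to 70439579, minus strand), the CRTC most studied in neurons, had a log2 fold change of -0.04 ± 0.0744 (adjusted p = 0.931). Crtc2 (ENSMUSG00000027936.18, chromosome 3, 90254163 to 90264125, plus strand), best known for its part in liver glucose production, had 0.06 ± 0.104 (adjusted p = 0.929). Crtc3 (ENSMUSG00000030527.15, chromosome 7, 80586627 to 80688877, minus strand) had 0.19 ± 0.143 (adjusted p = 0.723). Crebbp (ENSMUSG00000022521.10, chromosome 16, 4081328 to 4213997, minus strand) had -0.14 ± 0.0910 (adjusted p = 0.617). Ep300 (ENSMUSG00000055024.12, chromosome 15, 81585351 to 81652077, plus strand) had -0.08 ± 0.0900 (adjusted p = 0.872). Their standard errors were smaller than that of Crem, except for Crtc3, and the median over all genes was 0.01.

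**Figure D4:**
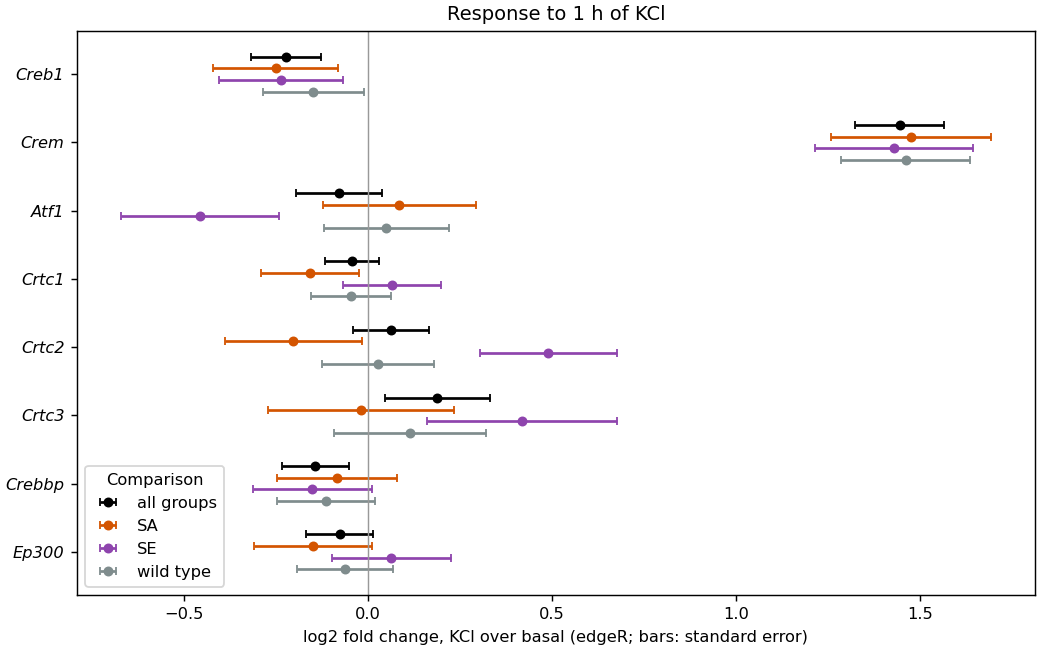
Log2 fold change of KCl over basal (horizontal axis; points, edgeR estimates; bars, standard error) for the 8 genes over all groups and within SA, SE and wild type. Crem lay between 1.43 and 1.48 in the 4 comparisons, and no other gene passed the test in these fits.

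CREB and CBP each exist in forms that differ by a cassette exon, and the junctions are shown because these forms set what a Creb1 or Crebbp TPM value is made of. The exon is in capitals, with the 15 transcript bases on each side in lower case, and the line under it gives the junction of the form that skips it (GENCODE M21 transcripts, GRCm38). The Creb1 exon is exon 4 of Creb1-201, chr1:64559727-64559768, plus strand. The Crebbp exon is exon 5 of Crebbp-201, chr16:4137366-4137479, minus strand.
Creb1-201: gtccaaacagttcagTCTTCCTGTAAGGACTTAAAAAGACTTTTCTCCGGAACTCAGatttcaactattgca
Creb1-202: gtccaaacagttcagatttcaactattgca
Crebbp-201: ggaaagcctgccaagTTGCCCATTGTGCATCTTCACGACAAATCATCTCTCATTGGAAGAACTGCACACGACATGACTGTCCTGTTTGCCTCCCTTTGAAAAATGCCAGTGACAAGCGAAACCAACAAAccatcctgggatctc
Crebbp-205: ggaaagcctgccaagccatcctgggatctc

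The Creb1 cassette of 42 bases adds 14 codons and separates the alpha form of CREB (341 codons) from the delta form (327 codons). The delta model Creb1-202 dominated, at 9.58 ± 1.92 TPM after KCl and 11.1 ± 2.07 TPM at basal (SD, n = 7 each). The alpha model Creb1-201 was 1.99 ± 1.16 TPM after KCl and 2.35 ± 0.602 TPM at basal. Its share of the pair was 16.47% ± 7.60 after KCl and 17.5% ± 3.54 at basal, and the ranges overlapped. The models also differ at their 3′ ends, so the share is not a count of reads across the exon. For CBP the 114-base exon separates models of 2441 and 2403 codons in near equal amounts. The longer model was 50.8% ± 7.79 of the pair after KCl and 52.0% ± 6.44 at basal, which also overlapped.

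For Crtc1, Crtc3, Ep300 and Crtc2, abundant or full-length models are named here, picked after their values were seen. Crtc1-201, of 630 codons, supplied 39.3 TPM after KCl and 40.8 TPM at basal, nearly all of Crtc1. Crtc3-201, of 619 codons, supplied 7.35 and 6.95 TPM. For Ep300, Ep300-201 of 2412 codons supplied 11.2 and 11.8 TPM, and a retained-intron model, Ep300-208, supplied 5.19 and 4.11 TPM. In Crtc2 the full-length Crtc2-201 of 692 codons was at 1.68 and 1.75 TPM, below Crtc2-208, annotated as subject to nonsense-mediated decay, at 3.61 and 3.02 TPM. No transcript of the 7 other members passed the test over all groups, of 6 tested for Creb1, 3 for Atf1, 4 for Crtc1, 7 for Crtc2, 3 for Crtc3, 3 for Crebbp and 4 for Ep300.

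Each mutant was set against its littermate wild type at each treatment, the question the study poses of BRG1 serine 1382. None of the 8 genes was called in SA or SE cultures, at basal or after KCl, and 0% of all genes was called in each of these 4 comparisons (edgeR; at an unadjusted p under 0.05 there were 1279 genes for SA at basal, 2040 for SA after KCl, 187 for SE at basal and 240 for SE after KCl). DESeq2 called no member either. Crem differed by -0.33 ± 0.207 on the log2 scale in SA after KCl (adjusted p = 0.512) and by -0.30 ± 0.219 in SA at basal (adjusted p = 0.660). Its 2 SA libraries after KCl, at 18.6 and 21.03 TPM, were below the 2 of the wild type, at 31.5 and 30.3 TPM, a gap that did not pass the test. The SA difference after KCl was negative in all 22 alternatives, from -0.64 with limma on log2(TPM + 0.1) to -0.26 with a library left out. In SE the difference was 0.08 ± 0.254 after KCl and 0.01 ± 0.266 at basal (adjusted p = 1.00 each). For the other 3 differences the direction turned with single libraries left out, with 0.068 for SA at basal without SA-line wild type basal replicate 1, -0.012 for SE after KCl without SE KCl replicate 2, and -0.048 for SE at basal without SE basal replicate 1.

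After KCl, Creb1 and Atf1 had the lowest unadjusted p-values among members between SA and wild type. Creb1 was 12.1 and 11.96 TPM in SA after KCl, against 19.0 and 18.5 TPM in SA-line wild type after KCl (log2 difference -0.41 ± 0.169, adjusted p = 0.411). At basal Creb1 was 17.4 and 12.4 TPM in SA, against 17.5 and 20.4 TPM in wild type, so that the nearest libraries of the groups were almost equal (-0.20 ± 0.169, adjusted p = 0.691). Atf1 was 10.5 and 12.2 TPM in SA after KCl, against 19.6 and 15.4 TPM in wild type (-0.50 ± 0.207, adjusted p = 0.412). At basal it was 11.5 and 10.3 TPM in SA, against 13.3 and 17.9 TPM in wild type (-0.49 ± 0.207, adjusted p = 0.621). Progenitor markers summed to 1143 to 1834 CPM in SA and 1710 to 3506 CPM in wild type after KCl, and fibroblast and vascular markers to 355 to 616 CPM and 584 to 974 CPM. The median log2 difference was -0.60 for the first list and -0.78 for the second after KCl, and -0.49 and -0.76 at basal, with no marker called. Their part in these values was not tested.

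The KCl response itself was set against that of the wild type. For Crem the response in SA minus that in wild type was -0.03 ± 0.303 on the log2 scale, and in SE minus wild type 0.07 ± 0.367 (adjusted p = 1.00 each). Both standard errors exceeded the differences, whose sign turned with single libraries left out (-0.40 to 0.26 for SA, -0.030 to 0.15 for SE). Under the other settings the SA difference stayed negative, from -0.44 to -0.0058. Mean Crem went from 7.26 TPM at basal to 19.8 TPM after KCl in SA, and from 8.37 to 30.9 TPM in SA-line wild type. The other members ranged from -0.32 for Crtc2 to -0.01 for Atf1 in SA, and from -0.42 for Atf1 to 0.65 for Crtc2 in SE. The value of Crtc2 (0.65 ± 0.323, adjusted p = 1.00) is one of counts: SE had 15.1 and 14.6 CPM after KCl against 11.3 and 9.83 CPM at basal, and SE-line wild type had 11.05 CPM after KCl against 12.3 CPM at basal. In TPM it did not show, since SE had 12.3 and 11.4 TPM after KCl against 9.19 and 9.07 TPM at basal, and SE-line wild type had 10.6 TPM after KCl against 7.83 TPM at basal. No member was called, and 0% of all genes was called in both comparisons (edgeR; 122 genes for SA and 159 for SE at an unadjusted p under 0.05; DESeq2 called no member). Between lines the response of Crem differed by -0.10 ± 0.237 (SE line minus SA line, adjusted p = 1.00), and no member was called, where 0.107% of all genes was. For the internal Crem transcripts the response difference was 0.01 ± 0.409 in SA and -0.29 ± 0.583 in SE.

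At basal 3 of 8 members were called between the SE line and the SA line, where 45.8% of all genes were, so the count is no result about these genes in particular. Crtc3 was 5.40, 5.08 and 4.42 TPM in the SE line at basal, against 8.29, 10.02, 13.98 and 11.1 TPM in the SA line. Its log2 difference was -1.10 ± 0.210 (SE line minus SA line, adjusted p = 0.00221), and the lines did not overlap. Atf1 was 8.20, 5.49 and 7.20 TPM in the SE line and 11.5, 10.3, 13.3 and 17.9 TPM in the SA line, also without overlap (-0.63 ± 0.169, adjusted p = 0.0124). Crtc1 differed in the other direction, with 49.0, 46.8 and 44.7 TPM in the SE line and 43.1, 40.3, 33.9 and 44.4 TPM in the SA line (0.39 ± 0.104, adjusted p = 0.0126). On log2(TPM + 1), limma gave 0.20 for Crtc1 (adjusted p = 0.166). Crem (0.22 ± 0.172), Creb1 (-0.08 ± 0.134), Crtc2 (-0.14 ± 0.147), Crebbp (0.22 ± 0.128) and Ep300 (0.09 ± 0.127) did not pass. Other settings called some of these: limma on log2(TPM + 1) called Crtc2 (-0.32, adjusted p = 0.0488), and length-scaled TPM called Crebbp (0.35, adjusted p = 0.0408). Crem was called without SA-line wild type basal replicate 1 (0.41, adjusted p = 0.0465) and Crebbp without basal replicate 2 of that group (0.34, adjusted p = 0.0369).

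Cell type markers moved with these line differences. In basal SE-line against SA-line libraries, 5 of 8 glutamatergic markers and 1 of 8 progenitor markers rose. Of all genes, 20.7% rose and 25.2% fell in this comparison. Markers that fell were 7 of 8 progenitor, 7 of 7 astrocyte and 7 of 7 oligodendrocyte lineage markers. A fall was also called for 8 of 9 GABAergic, 6 of 7 microglial and 10 of 11 fibroblast and vascular markers tested. Summed progenitor markers were 288 to 346 CPM in the SE line and 1051 to 3322 CPM in the SA line. For the oligodendrocyte lineage the sums were 123 to 138 and 591 to 739 CPM in that order. GABAergic markers summed to 168 to 181 and 488 to 554 CPM. Microglial markers summed to 14.6 to 19.4 and 60.5 to 70.2 CPM. Fibroblast and vascular markers summed to 48.5 to 68.4 and 306 to 853 CPM. The part of cell composition in the Crtc3, Atf1 and Crtc1 differences was not tested, and the line cannot be told apart from litter or preparation.

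The genes around CREB were described by lists of known function. Of 33 measured genes known as CRE-containing CREB targets (35 listed), 24 rose over all groups after KCl, none fell and 9 did not pass, with a median log2 fold change of 2.70 against 0.01 over all genes. Those with the lowest p-values were Nr4a1, an orphan nuclear receptor (144-fold, adjusted p = 2.09e-09), Npas4, a neuronal activity-dependent factor (286-fold, adjusted p = 2.09e-09), Egr1, a zinc finger factor (57.2-fold, adjusted p = 2.47e-09), and Junb, an AP-1 subunit (72.3-fold, adjusted p = 5.94e-09). The log2 change of Crem, 1.44, was below that median. Over all groups 2.62% of all genes rose and 1.93% fell, shares that also stand beside the list counts below. Within genotypes 21 of the 33 rose in SA, 22 in SE and 22 in wild type. Of all genes, 0.699%, 1.22% and 1.05% rose in that order. The list holds textbook targets known for their induction by activity and is not independent evidence of its direction.

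Of 23 listed genes that carry the signal to CREB, for adenylyl cyclases, protein kinase A and its anchor, and calcium-dependent and MAP kinase pathway kinases, none passed in either direction, where 4.55% of all genes did, with a median log2 fold change of -0.02 and a range of -0.47 to 0.23. Among 19 genes for SIK kinases, phosphatases, phosphodiesterases, protein kinase A inhibitors and CRTC-binding adaptor proteins, 2 rose and none fell. They were Sik1, also on the target list, a kinase that phosphorylates CRTCs and keeps them in the cytoplasm (5.80-fold, log2 2.54 ± 0.0660, adjusted p = 1.43e-08), and Pde4d, a phosphodiesterase that degrades cAMP (1.84-fold, adjusted p = 0.00102). Of 21 measured acetyltransferases, deacetylases and partners of CBP or CREB, Cited2, which binds the same CBP domain as hypoxia-inducible factor, rose (2.63-fold, adjusted p = 4.16e-05) and the other 20 did not pass.

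Among 15 further CREB and ATF family genes, 2 rose and none fell. Atf3, a stress- and activity-induced member that represses many CRE-containing promoters, rose 10.1-fold (log2 3.34 ± 0.157, adjusted p = 1.19e-06). Atf4, the effector of the integrated stress response, rose 1.83-fold (adjusted p = 0.00182). The response of Atf3 was larger in the SE line than in the SA line by 3.06 ± 0.293 on the log2 scale (adjusted p = 0.00459). Of the marker lists, Dlx5 (2.23-fold, adjusted p = 7.54e-05) and Dlx2 (1.65-fold, adjusted p = 0.0180) of 9 GABAergic markers rose after KCl, and no marker of the 6 other lists was called. The summed GABAergic markers were 221 to 667 CPM after KCl and 168 to 554 CPM at basal with both lines pooled. Within groups they were higher after KCl, with 644 to 648 against 542 to 552 CPM in SA and 222 to 255 against 168 to 181 CPM in SE. SA-line wild type had 584 to 667 against 488 to 554 CPM, and SE-line wild type 221 against 169 CPM. The part of these markers in the rise of Crem was not tested.

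The CRE is the palindrome TGACGTCA, and its core is TGACG. Both strands of the 300 bases from 250 before to 50 after each RefSeq gene start (GRCm38.p6) were searched. The palindrome was in 1.79% and the core in 20.8% of 32851 windows, every palindrome also counting as a core. Crem and Crtc2 were not searched, and the internal promoter of Crem is therefore not covered. The other 6 members had a window, none with the palindrome, and Atf1 alone had the core. A stretch of 60 bases around it is shown beside those of Nr4a1, Npas4 and Junb, of the 4 targets named above. Egr1 is not shown, and whether its window holds the core is not reported here. Stretches were picked to hold the core, which is in capitals on either strand (CGTCA where it lies on the opposite strand). They lie at chr15:100227739-100227798 (plus strand) for Atf1, chr15:101266776-101266835 (plus strand) for Nr4a1, chr19:4990111-4990170 (minus strand) for Npas4 and chr8:84978825-84978884 (minus strand) for Junb.
Atf1: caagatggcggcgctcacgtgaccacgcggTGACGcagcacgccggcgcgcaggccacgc
Nr4a1: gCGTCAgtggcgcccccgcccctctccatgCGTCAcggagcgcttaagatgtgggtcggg
Npas4: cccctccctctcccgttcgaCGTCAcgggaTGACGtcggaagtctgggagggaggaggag
Junb: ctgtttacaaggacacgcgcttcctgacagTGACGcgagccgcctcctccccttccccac

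A match describes the letters of a window and nothing further, and Atf1, which holds the core, did not pass the test after KCl. The 300-base windows held the core 1 time for Atf1, 4 times for Nr4a1, 2 times for Npas4 and 1 time for Junb, and the nearest upstream site lay 90, 40, 169 and 106 bases before the start in that order.

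The 5 genes whose pattern was most like that of Crem were taken by Pearson's correlation of log2 CPM over the 14 libraries, with the mean of each line subtracted, among 14564 genes. The coefficients describe these libraries, which share treatment and depth. They were 0.990 for Ifrd1, 0.988 for Zfp184, 0.987 for Slc38a2, an amino acid transporter, 0.983 for Bdnf, a neurotrophin, and 0.981 for Rassf1. Since Crem separates the treatments, a higher level after KCl follows from this choice. Levels were 2.04-fold higher after KCl for Ifrd1, 3.19-fold for Zfp184, 1.77-fold for Slc38a2, 9.87-fold for Bdnf and 3.51-fold for Rassf1.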

How the data were processed

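The 14 RNA-seq libraries were quantified by the authors with kallisto 0.43.1, per the submitters' processing notes, which also name GRCm38 and mm10. Transcript names in the files follow GENCODE M21, which 95 of the 96 member transcripts matched. The authors deposited estimated counts and TPM for genes and transcripts, and every gene count equals the sum of its transcripts. Of nonzero gene counts, 65.6% were not whole (tolerance 1e-06), because kallisto divides reads among transcripts that share sequence. Single transcripts are therefore less certain than genes, and TPM keeps no depth.

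The 8 genes were taken by symbol, and they and the lists were chosen with earlier results of these data known. Estimated counts were rounded to whole numbers, filtered (filterByExpr by genotype and treatment), scaled by TMM and fitted with edgeR 4.0.16 (R 4.3.3) as quasi-likelihood models with 8 group means over 14 libraries, leaving 6 residual degrees of freedom. This left 17732 genes and 47808 transcripts. Single libraries of SE-line wild type were assumed to vary like the other groups. An adjusted p under 0.05 was a call. The share of internal Crem transcripts was tested by an exact permutation within groups. Named were the members, Crem transcripts with at least 0.1 TPM, up to 4 called genes per list with the lowest p, and the 5 genes most like Crem. Alternatives were DESeq2 1.42.0, limma 3.58.1 on log2(TPM + 1) and log2(TPM + 0.1), length-scaled TPM, no filter, other scalings, only the libraries compared, a replicate block and each library left out. Protein sequences were not used here.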

Additional observations from a re-analysis of the deposited data

How the results depend on the processing

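Over 37 results, 795 alternative values were computed, of which 751 kept their direction and their side of the threshold, or stayed within 1.5 times a count. The rise of Crem over all groups kept its call in each of its 22 alternatives (log2 1.37 to 1.64), and the gain in the share of internal transcripts was 25.8 (share of estimated counts) to 37.9 percentage points. The calls of Crem within genotypes were less firm. In SA the log2 change was 1.47 with only the libraries compared (adjusted p = 0.0950) and 1.39 to 1.55 with each library left out. In SE it was 1.35 to 1.52 with each left out, and in wild type 1.46 with only the libraries compared (adjusted p = 0.323). Members called numbered 0 in SA and in wild type and 2 in SE (Crem and Crtc2) with only the libraries compared, and 0 to 1 in SA and 0 to 1 in SE with each library left out. DESeq2 called 6 Crem transcripts, and 1 to 3 were called with each library left out. The Crem response difference between SE and wild type turned to -0.15 with length-scaled TPM, -0.11 with limma on log2(TPM + 1) and -0.13 on log2(TPM + 0.1), and ranged from -0.030 to 0.15 with each library left out. With each library left out, the SA response difference ranged from -0.40 to 0.26, SA minus wild type at basal from -0.59 to 0.068, SE minus wild type from -0.012 to 0.16 after KCl and from -0.048 to 0.082 at basal, and the line response difference from -0.28 to 0.048. Under the settings other than single libraries left out, the SA response difference of Crem was -0.44 to -0.0058. Crtc1 between lines lost its call with limma (0.20, adjusted p = 0.166 and 0.169). The cause was not tested.

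Deviations of same-numbered basal and KCl libraries correlated at 0.580 in SA, -0.0741 in SE and 0.794 in SA-line wild type, so the numbers were not taken to pair the libraries. With a replicate block 3 members were called over all groups, Creb1 (-0.22, adjusted p = 0.0471) and Crtc3 (0.19, adjusted p = 0.0444) beside Crem (1.45, adjusted p = 1.42e-08). Under the block 3 were called in SE (Crem, Crtc2 and Crtc3), no Crem transcript was called (0 of 17), and the share had p = 0.0156 in an exact sign-flip test over numbered pairs. Low counts limit the basal values of single Crem transcripts.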
